A study of Mus musculus with 4 samples.

Results

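Glycolysis was examined through 10 of its enzyme genes, Hk1, Hk2, Gpi1, Pfkl, Aldoa, Aldoc, Tpi1, Pgk1, Pkm and Ldha, which were taken by name as enzymes of the pathway with some of their paralogs. All 10 had library values, among 9244 genes that did. The data are RNA sequencing of long-term haematopoietic stem cells (HSCs), the rare bone marrow cells that sustain every blood lineage, from C57BL/6 mice aged 8 to 12 weeks. The sort gate took LSK cells (negative for lineage markers, positive for Sca-1 and Kit) that lacked CD34 and Flk2. Wild-type (WT) cells and Sin3B knockout (Sin3B KO) cells gave 2 libraries each, so n = 2 for every mean ± SD given here. The Sin3B protein holds together corepressor complexes that contain histone deacetylases. The labels do not say how or in which cells the gene was deleted, nor whether a genotype's libraries stem from different animals. The p-values therefore reflect only how far these libraries differ, which may be technical variation.

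Glycolysis splits glucose into pyruvate in the cytosol and yields ATP without oxygen. Hexokinase traps glucose in the cell, phosphofructokinase commits it to the pathway, aldolase cleaves the resulting six-carbon sugar, and the lower enzymes convert the fragments to pyruvate, which lactate dehydrogenase can reduce to lactate. Most steps have several isoenzymes encoded by separate genes. HSCs are known to rely strongly on glycolysis in their marrow niche, where hypoxia-inducible factors (HIFs) promote the expression of many of its enzymes. Aldoa encodes the aldolase found in most tissues, and Aldoc encodes aldolase C, best known as a brain isoenzyme.

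Sin3b itself was checked first. Its normalised read counts were 1522 and 1825 in the WT libraries against 755 and 647 in the Sin3B KO libraries, so both KO libraries lay below both WT libraries and still held reads of the gene. Depth ranged from 9950979 to 13700630 reads in the listed genes, and each of the 10 enzyme genes had at least 264 reads in every library. These read numbers are the deposited values divided by the common step found in each library, and as no gene with a mean under 120.2 is listed, the step could not be checked on low counts. The 13 HSC identity markers reported here were all read. Their summed level was 62320 to 65140 in WT and 58827 to 65490 in Sin3B KO. Kit and Meis1 had the highest means and so weigh most in that sum. Log2 fold changes (Sin3B KO minus WT) over the 13 ran from -1.21 to 0.35, with 9 above 0 and 4 below. Both KO libraries lay below both WT libraries for 2 of them (19.4% of all genes) and above for 2 (24.7%). Markers of other blood cells were present too. Those of the erythroid, B cell, and granulocyte and monocyte lists differed mainly between libraries 1 and 2. Log2 fold changes were above 0 for 8 of 8, 6 of 7 and 8 of 13 of them (53.4% of all genes), with medians of 0.64, 0.74 and 0.15. The summed level of 8 megakaryocyte and platelet markers did not follow the library number. It was 18360 and 14593 in WT against 15670 and 18297 in Sin3B KO. The summed level of 13 granulocyte and monocyte markers was 79747 in WT 1, 14889 in WT 2, 55140 in Sin3B KO 1 and 24825 in Sin3B KO 2.

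The aldolase pair carries the largest contrast among these enzymes, so 1 start-site window of each gene is shown. Each window runs from 250 bases before to 50 bases after an annotated start, from RefSeq on GRCm38.p6. Capitals mark the core of the hypoxia response element, searched as ACGTG and GCGTG on both strands (CACGT and CACGC as read here). The upstream window of Aldoc, chr11:78322823-78323122 on the plus strand, holds 3 matches, and the Aldoa window chr7:126799205-126799504 on the minus strand holds 1. Windows not shown hold 1 match for Aldoc, and 1 and 0 for Aldoa, so the contrast of 3 with 1 depends on the windows chosen.
Aldoc: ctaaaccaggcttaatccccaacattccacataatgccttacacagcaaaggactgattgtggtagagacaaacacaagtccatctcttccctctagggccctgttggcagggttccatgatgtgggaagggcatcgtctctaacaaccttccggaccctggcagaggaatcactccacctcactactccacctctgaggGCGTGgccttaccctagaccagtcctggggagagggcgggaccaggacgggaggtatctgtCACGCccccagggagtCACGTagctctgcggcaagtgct
Aldoa: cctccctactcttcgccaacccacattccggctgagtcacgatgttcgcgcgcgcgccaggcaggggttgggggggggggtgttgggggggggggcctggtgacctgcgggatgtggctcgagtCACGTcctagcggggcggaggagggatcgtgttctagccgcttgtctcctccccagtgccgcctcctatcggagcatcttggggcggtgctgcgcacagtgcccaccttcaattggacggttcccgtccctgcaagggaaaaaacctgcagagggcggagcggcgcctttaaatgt
At least 1 window held a match in 8 of the 10 enzyme genes (80%), against 46.7% of 27025 genes with a window. By window the counts were 11 of 16 (68.8%) for the enzymes and 43.8% of all 32851 windows. The windows of Gpi1 and Tpi1 held neither sequence, and the upstream Ldha window held 7 matches, where a palindromic CACGTG counts once on each strand. A match is a description of the sequence and not a measured binding site.

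Aldoc had a lower level in Sin3B KO than in WT HSCs, while Aldoa did not. Aldoc was at 634 (WT 1), 719 (WT 2), 322 (Sin3B KO 1) and 307 (Sin3B KO 2) normalised read counts. The 2 libraries of each genotype lay close together and the genotypes did not overlap. The means were 676 ± 60.2 (SD, n = 2) and 314 ± 10.8 (SD, n = 2), a 2.15-fold lower value in the KO. On the log2(value + 1) scale used for all tests the fold change was -1.10 (SE 0.26, 95% confidence interval -1.69 to -0.52). Aldoc ranked 24th of 9244 genes by p and 9th among genes with lower values in the KO, but it did not pass the threshold of 0.05 set over all genes (adjusted p = 0.548 by limma with Benjamini-Hochberg adjustment, unadjusted p = 0.0023). In this comparison 0 of 9244 genes passed (0.0%), 824 (8.91%) had an unadjusted p under 0.05, and 365 of those (3.95%) were lower in the KO. Sin3b, the deleted gene, did not pass either, at a log2 fold change of -1.25 (limma, Benjamini-Hochberg adjusted p = 0.548). The authors' deposited table gives Aldoc a log2 fold change of -0.82 and an adjusted p of 0.0835. It calls 31 of 9796 genes (0.316%) at 0.05, with Sin3b among them (adjusted p of 0.0025). At an unadjusted p under 0.05 the authors' deposited table has 2 of the 10 enzymes, Aldoc and Hk1, beside 9.5% of all genes.

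Aldoa was the most abundant of the 10 enzymes. It was at 8899 and 11969 in the WT libraries against 11196 and 12380 in the KO libraries, so the genotypes overlapped. Its log2 fold change was 0.19 (95% confidence interval -0.29 to 0.67). Scaled by exon length, Aldoc made up 4.18% (WT 1), 3.55% (WT 2), 1.73% (Sin3B KO 1) and 1.496% (Sin3B KO 2) of the summed aldolase level. Both WT libraries therefore carried a larger share of Aldoc than either KO library, and library scaling cannot move a share taken within a library. The log2 ratio of Aldoc to Aldoa differed by -1.29 between Sin3B KO (-5.22 ± 0.15) and WT (-3.93 ± 0.17). With 2 libraries against 2, an exact two-sided permutation test cannot go below p = 0.333, which is the value found (0.833 after Benjamini-Hochberg adjustment over 5 isoenzyme pairs). The mRNAs of the aldolase genes have 0 stretches of 50 bases in common, and Aldoc shares 0 of its 2924 with any other annotated transcript. For Aldoa 8.08% of such stretches also occur in transcripts of other genes, mostly pseudogenes.

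**Figure D1:**
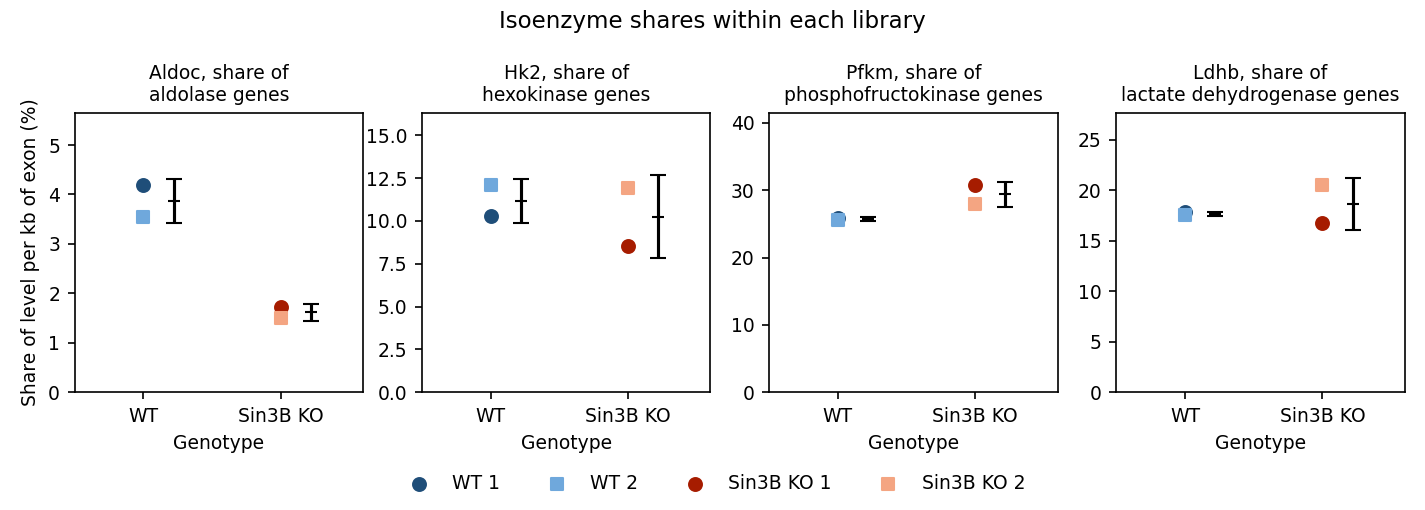
Share of 1 isoenzyme gene in the summed level per kb of exon of its listed family (vertical axis, percent, from 0) in WT and Sin3B KO HSCs (horizontal axis). Points are libraries and the bars beside them are mean ± SD of 2 libraries. Aldoc lies at 3.55% to 4.18% in WT and at 1.496% to 1.73% in Sin3B KO. The shares of Pfkm do not overlap either (25.6% to 25.9% in WT, 28.0% to 30.7% in Sin3B KO), whereas those of Hk2 and Ldhb overlap between genotypes.

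Of the hexokinases, which phosphorylate glucose on entry, Hk1 was the main gene. It was at 5663 and 7108 normalised read counts in the WT libraries and at 9221 and 7822 in the KO libraries. Both KO libraries lay above both WT libraries, but the highest WT and the lowest KO library were close. The means were 6386 ± 1022 and 8521 ± 989, 1.33-fold higher in the KO, with a log2 fold change of 0.42 (SE 0.20, 95% confidence interval -0.04 to 0.88). This did not pass (limma, Benjamini-Hochberg adjusted p = 0.550), and the authors' deposited table gives it a log2 fold change of 0.36 and an adjusted p of 0.512. Hk2, the isoenzyme inducible by HIF and insulin signalling, was at 985 and 1330 in WT against 1210 and 1514 in the KO, with overlapping groups. By level per kb of exon, Hk2 made up 10.3% and 12.1% of the hexokinase genes listed in WT, against 8.52% and 11.9% in Sin3B KO, and Hk1 between 68.4% and 75.2% in the 4 libraries. The remainder was Hk3, an isoenzyme typical of leukocytes.

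The next enzymes of the upper pathway had nearly equal means in the 2 genotypes. Gpi1 encodes the isomerase that turns glucose 6-phosphate into fructose 6-phosphate. Its values were 1649.8 and 2006 in WT against 1716 and 1965 in Sin3B KO (log2 fold change 0.01, 95% confidence interval -0.46 to 0.48). Pfkl, the liver-type subunit of phosphofructokinase, varied more within WT (3066 and 4882) than between genotypes (3761 and 4020 in the KO, a log2 difference of 0.01). The interval of Pfkl was -0.54 to 0.56, and both intervals leave room for a difference in either direction, so an equal level was not shown. Pfkl made up 54.8% and 60.4% of the phosphofructokinase level per kb in WT against 53.4% and 54.2% in the KO. Pfkm, the muscle-type subunit, made up 25.9% and 25.6% in WT against 30.7% and 28.0% in the KO, and these groups did not overlap. The exact permutation p of the Pfkm to Pfkl ratio was again the smallest possible, 0.333.

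Among the lower enzymes, Tpi1 interconverts the triose products of aldolase, Pgk1 makes the first ATP of the pathway and Pkm the last, and Ldha reduces pyruvate to lactate. Tpi1 was at 1850.5 and 2610.2 in WT against 1876 and 2460.4 in Sin3B KO, so that library 1 was low and library 2 high in each genotype (log2 fold change -0.03). Pgk1 was at 301 and 320.5 in WT against 417 and 391 in the KO. Its groups did not overlap (log2 fold change 0.38, 95% confidence interval -0.26 to 1.02), and it did not pass (limma, Benjamini-Hochberg adjusted p = 0.640). The Pgk1 level is uncertain in itself, since 68.0% of the 50-base stretches of its mRNA also occur in transcripts of 5 pseudogenes, and how reads with several matches were counted is not given in the sources used here. Pkm was at 6574 and 9119 in WT against 7733 and 9668 in the KO, with overlap, and the values do not separate its M1 and M2 splice forms. Of the Pkm mRNA 36.3% of 50-base stretches occur in other genes. The same share was 25.3% for Gpi1, 15.3% for Ldha and 6.83% for Tpi1. Ldha was at 6331 and 8601 in WT against 8370.4 and 8978 in the KO, also with overlap (log2 fold change 0.23, 95% confidence interval -0.24 to 0.71).

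**Figure D2:**
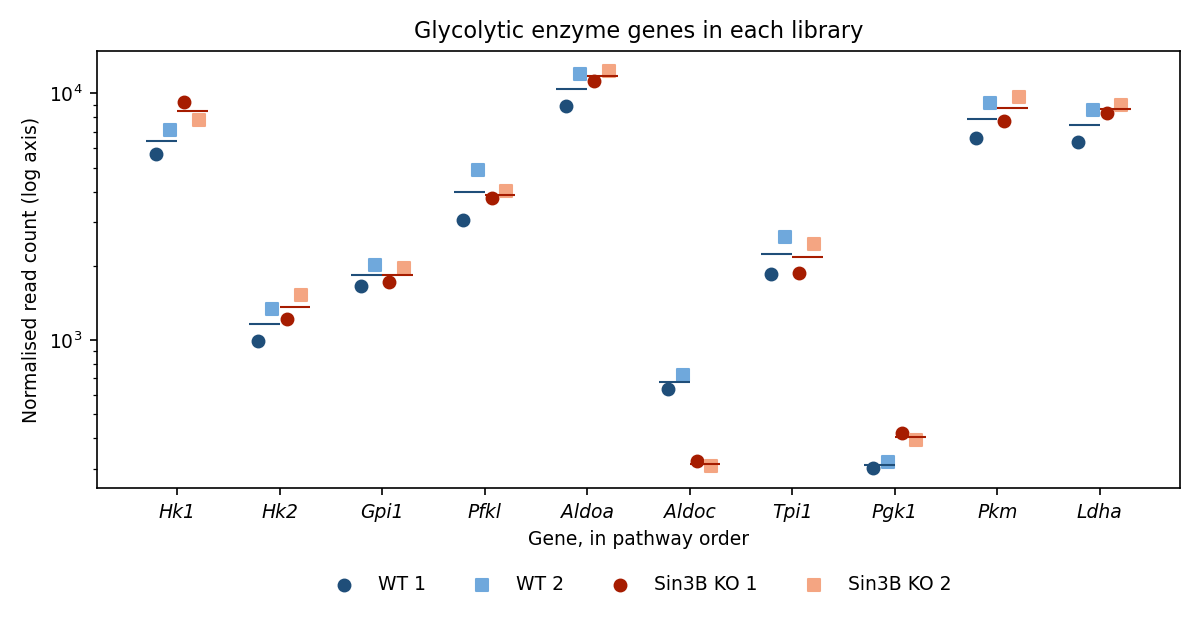
Normalised read counts (vertical log axis) of the 10 enzyme genes in pathway order (horizontal axis) in each library, with a short line at each genotype mean. Aldoc is the gene whose KO libraries (322 and 307) both lie below its WT libraries (634 and 719), and WT 1 is the lowest library for the 9 others.

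Of the 9 enzymes other than Aldoc, 7 had a higher mean level in Sin3B KO cells and 2, Pfkl and Tpi1, a slightly lower one, and the sign of the median over the 10 genes depended on WT 1. Log2 fold changes were above 0 for 8 of the 10 genes (53.4% of all genes), or for 6 under each of 3 other scalings, where Gpi1 and Pfkl turned below 0. The median was 0.17 beside 0.03 over all genes, 0.14 above it, a distance that scaling a library cannot move. It was 0.065 with the trend on exon length removed (across 9000 genes, which are not independent replicates, Spearman's rho of fold change with exon length was -0.273) and 0.069 over the genes that average 500 or more. Leaving out WT replicate 1 gave -0.077 and leaving out Sin3B KO replicate 2 gave -0.0033, so the 10 genes did not stand above all genes in those settings. The genotypes did not overlap for 3 of the 10 (44.1% of all genes). Sin3B KO libraries lay wholly above WT for 2 genes, Hk1 and Pgk1, against 24.7% of all genes, and wholly below for 1, Aldoc, against 19.4%. At an unadjusted p under 0.05 there was 1 gene of 10, Aldoc, beside 8.91% of all genes. WT 1 was the lowest library for 9 of the 10 genes, against 30.6% of all genes. WT 2 exceeded WT 1 in 10 of 10 (54.6% of all genes) with a median log2 difference of 0.43, and Sin3B KO 2 exceeded Sin3B KO 1 in 7 of 10 (50.3% of all genes) with a median of 0.12. The 10 genes summed to 35954 in WT 1, 48666 in WT 2, 45822 in Sin3B KO 1 and 49506 in Sin3B KO 2, that is 0.317%, 0.419%, 0.377% and 0.405% of the listed signal. WT 1 is also the library with the highest granulocyte and monocyte marker level, and the part of those markers in the enzyme values was not tested. Without WT replicate 1 the median over the 10 genes was -0.050 and 4 were above 0, without WT replicate 2 it was 0.40 with 9 above 0, and without Sin3B KO replicate 2 it was 0.04 with 5 above 0. With any 1 library left out, Aldoc stayed between -1.19 and -1.01.

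**Figure D3:**
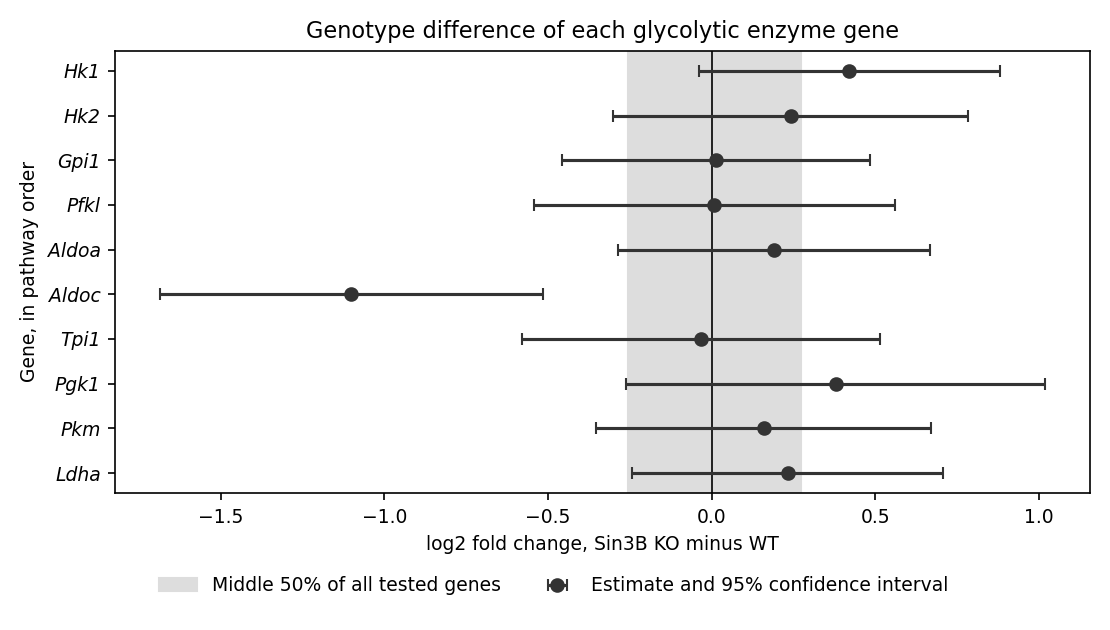
Log2 fold change, Sin3B KO minus WT (horizontal axis), of the 10 enzyme genes in pathway order (vertical axis), with points for estimates, bars for 95% confidence intervals and a grey band for the middle 50% of all tested genes. The interval of Aldoc, -1.69 to -0.52, excludes 0 before adjustment, and the intervals of the 9 others include it.

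Compared per kb of exon, the levels of the 10 genes spanned a wide range. The mean level per kb over the 4 libraries was 6091 for Aldoa, 4259 for Ldha, 3183 for Pkm, 1536 for Hk1, 1247 for Tpi1, 1054 for Pfkl, 636 for Gpi1, 224 for Hk2, 196 for Pgk1 and 166 for Aldoc. Aldoa lay above Ldha in every library taken against every other (4879 to 6787 and 3341 to 4738). Ldha and Pkm overlapped, as did Hk1, Tpi1 and Pfkl in turn, and at the low end Hk2, Pgk1 and Aldoc. Gaps without overlap separated Pkm from Hk1, Pfkl from Gpi1 and Gpi1 from Hk2. The exon lengths come from a GRCm38 annotation, and reads lost to near-identical copies would lower Pgk1 most.

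Around these 10 genes, 7 further lists held other genes of glycolysis and of the pathways connected with it, and 0 of their genes passed (adjusted p of at least 0.548 by limma with Benjamini-Hochberg adjustment). Gapdh, Pgam1 and Eno1 were on the lists but had no values under these names, so they were not examined. The lists hold 75 measured genes, of which 12 had an unadjusted p under 0.05, beside 8.91% of all genes. Of 22 genes listed as other glycolytic enzymes 11 had values, 8 of them above 0, with a median log2 fold change of 0.29 (0.036 without WT replicate 1 to 0.38 without WT replicate 2). These counts and the median include genes outside the main pathway, such as Pgam5 (-0.61), a mitochondrial protein phosphatase, Ldhd (0.06) and Minpp1 (-0.11). At an unadjusted p under 0.05, 2 of the 11 were higher in the KO (4.97% of all genes) and 0 lower. They were Pklr, the pyruvate kinase of liver and red cells, and Bpgm, which makes the 2,3-bisphosphoglycerate that regulates oxygen release from haemoglobin. Pklr was at 124 and 80.1 in WT against 454 and 197 in Sin3B KO (log2 fold change 1.57, SE 0.52), with the highest value in Sin3B KO 1. Bpgm was at 642 and 859 in WT against 1111 and 1257 in the KO (log2 fold change 0.67, SE 0.24). Both are abundant in red cells, and the summed level of 8 erythroid markers was 6493 in WT 1, 2019 in WT 2, 9167 in Sin3B KO 1 and 2981 in Sin3B KO 2, whose part in the result was not tested. Pfkm and Pfkp had the highest normalised read counts of this list, with log2 fold changes of 0.29 and 0.13. Per kb of exon, Ldhb, the heart-type lactate dehydrogenase, was highest at 950.1, against 520.1 for Pfkm and 312 for Pfkp.

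Transport and the control of fructose 2,6-bisphosphate, the activator of phosphofructokinase, showed mixed directions. Of 10 transporters 6 had values, with 2 above 0, a median log2 fold change of -0.14 (-0.25 to -0.069 over the settings run) and 3 wholly lower in the KO (19.4% of all genes). Slc16a1, a lactate and pyruvate carrier, was at 672 and 718 in WT against 531 and 470.0 in the KO. Slc2a8, a glucose carrier of internal membranes, was at 187 and 181 in WT against 164 and 66.0 in the KO. Slc2a3, a high-affinity glucose carrier, was higher in library 2 of each genotype (3286 and 5716 in WT, 4464 and 7078 in the KO), and Bsg, a chaperone of lactate carriers, was at 3878 and 4210.5 in WT against 4733 and 3677 in the KO. In the list of fructose 2,6-bisphosphate enzymes and gluconeogenesis 6 of 13 genes had values, with a median of 0.04 and no steady sign, from -0.070 with upper quartile scaling to 0.20 without WT replicate 1. Its 2 genes under an unadjusted p of 0.05 (4.97% of all genes in that direction) were Fbp1, the gluconeogenic enzyme that opposes phosphofructokinase, at 306 and 326 in WT against 478 and 626 in the KO, and G6pc3, a glucose 6-phosphatase, at 1484 and 1679 in WT against 2189 and 2374 in the KO. Pck2, the mitochondrial phosphoenolpyruvate carboxykinase, had the highest normalised read count of the list and a log2 fold change of 0.02. Per kb of exon it lay at 811, below G6pc3 at 1203.

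Genes that use pyruvate and glucose carbon beyond glycolysis mostly had higher means in Sin3B KO cells. All 16 measured citric acid cycle genes of 17 were above 0 (53.4% of all genes) with the deposited scaling, 15 with scaling to the total and 13 with upper quartile scaling. They had a median log2 fold change of 0.32 and a range of 0.08 to 0.60. Their median lay 0.29 above that of all genes under each scaling. That distance was 0.22 over the genes that average 500 or more and 0.23 with the trend on exon length removed. Without WT replicate 1 the median itself was 0.25 and the distance 0.22. The cell cycle markers and immediate early genes also had medians away from 0, but both lists differed between libraries 1 and 2 too. From library 1 to library 2 the median log2 difference of the cell cycle markers was -0.14 in WT and -0.67 in Sin3B KO. For the immediate early genes it was 1.40 and 1.14, and for the citric acid cycle genes 0.17 and -0.093. The 14 cell cycle markers summed to 29420 and 28240 in WT against 42816 and 30023 in Sin3B KO, with a median log2 fold change of 0.45. Of these markers 4 were higher at an unadjusted p under 0.05 (4.97% of all genes). Log2 fold changes were above 0 for 10 of the 14 and below for 4 (53.4% of all genes above). The KO libraries lay wholly above WT for 4 (24.7% of all genes) and wholly below for 1 (19.4%). The 11 measured immediate early genes are induced by stress and cell handling. They summed to 8616 and 24171 in WT against 7769 and 13611 in the KO, so the genotypes overlapped. Their median was -0.94, with 10 below 0 and 1 above (53.4% of all genes above). The KO libraries lay wholly below WT for 2 of the 11 (19.4% of all genes). The part of either list in the values of any pathway here was not tested. In 13 of the 16 citric acid cycle genes the KO libraries lay wholly above WT (24.7% of all genes). At an unadjusted p under 0.05, 5 of these 16 were higher in the KO (4.97% of all genes). Sdhb, the iron-sulphur subunit of succinate dehydrogenase, was at 1805 and 2084 in WT against 2993 and 2771 in the KO, and Idh3a, a subunit of isocitrate dehydrogenase, at 3018 and 2287 in WT against 4262 and 3676 in the KO. Mdh2, the mitochondrial malate dehydrogenase, was at 5070.2 and 7082 in WT against 9592 and 8606 in the KO, and Sdha at 7197 and 8132 in WT against 11134 and 9730.2 in the KO. Of 17 genes for pyruvate entry into mitochondria 12 had values. In this list 7 were above 0 and 5 below, a share of 58.3% above against 53.4% of all genes. The median of the list was 0.31 (0.15 to 0.35 over the settings run). Pdp2, a phosphatase that activates pyruvate dehydrogenase, was at 2263 and 2784 in WT against 3254 and 4294 in the KO. In the pentose phosphate pathway, which branches off at glucose 6-phosphate, 8 of 10 genes had values, with 6 above 0 and a median of 0.26 (0.14 to 0.34 over the settings run). Its KO libraries lay wholly above WT in 6 genes (24.7% of all genes) and wholly below in 1, H6pd (19.4%). The gap was narrow for Tkt, whose lowest KO value was 9596 against a highest WT value of 9575. It was narrow for G6pdx too, at 1232 against 1209. Taldo1, transaldolase, was at 2349 and 2358 in WT against 3837 and 3102 in the KO, and H6pd, the enzyme of the endoplasmic reticulum, at 555 and 790.3 in WT against 332 and 551 in the KO. Tkt, transketolase and the gene of that list with the highest level by read count and per kb, had a log2 fold change of 0.16.

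The HIF pathway list, which holds regulators and targets of the factors, had no common direction, with 16 of 25 genes measured, 8 above 0 and a median of 0.05 (-0.16 without WT replicate 1 to 0.15 over the genes that average 500 or more). In 6 the KO libraries lay wholly below WT (19.4% of all genes) and in 4 wholly above (24.7%). Ndrg1, a hypoxia-induced gene, was at 1328 and 1851 in WT against 883 and 1107 in Sin3B KO (log2 fold change -0.66, SE 0.24). It was the 1 gene of the 16 under an unadjusted p of 0.05, beside 8.91% of all genes (3.95% lower in the KO). Mxi1, a Max-binding antagonist of Myc, was at 596 and 780.4 in WT against 477 and 489.6 in the KO. Bnip3l, a mitophagy receptor, and Hif1an, an inhibitor of HIF activity, had the highest normalised read counts of the list, with log2 fold changes of 0.25 and 0.21. Per kb of exon Bnip3l was also highest at 472, followed by Ndrg1 at 447, while Hif1an was at 236.

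**Figure D4:**
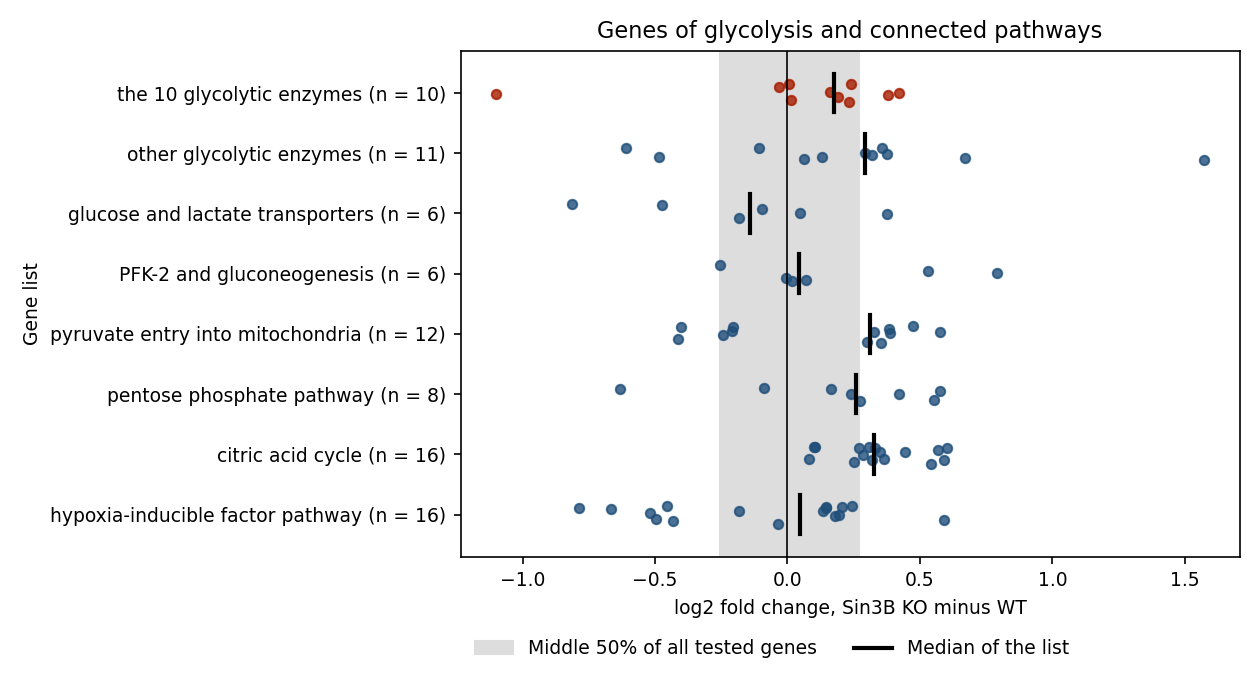
Log2 fold change, Sin3B KO minus WT (horizontal axis), of single genes (points) in the 10 enzymes and 7 connected lists (vertical axis, n measured), with the median of each list as a bar and the middle 50% of all tested genes as a grey band. Aldoc at -1.10 is the lowest point shown and Pklr at 1.57 the highest, and the 16 citric acid cycle genes all lie above 0 with the deposited scaling shown.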

How the data were processed

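RNA was extracted from sorted HSCs lysed directly after sorting, and low-input polyA RNA libraries were made by the SMARTer (template-switching) procedure, per the labels' protocols. Bowtie, DESeq and the mouse build mm9 are named, with no versions, per the submitters' processing notes. No source used here gives the read counter, the annotation or the treatment of multiply matching reads. The authors deposited a signal per gene and library that is a read count divided by 1 size factor per library, as the values show: all were whole multiples of a step (0.892 to 1.14) within 0.01 of a step. Per the file headers the authors also deposited their own comparison (log2 fold change and standard error, test score, p-values). The lowest listed mean is 120.2, and 552 of 9796 genes have no library values and were left out.

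limma 3.58.1 in R 4.3.3 was fitted to log2(value + 1) of all 9244 genes with a trended prior (6.62 prior and 2 residual degrees of freedom), genotype only, two-sided, with Benjamini-Hochberg adjustment over all genes and a threshold of 0.05. Exon lengths (union of exons, GENCODE M21 basic set, GRCm38) were joined by Ensembl identifier for 9000 genes, and 50-base stretches of each coding transcript were searched in all annotated transcripts on both strands. Named genes were Sin3b, the 10 enzymes and, from each pathway list, the 2 of smallest unadjusted p and the 2 with the highest mean value (read counts not scaled for length). Other genes and the phosphofructokinase, lactate dehydrogenase and pyruvate kinase comparisons were picked once values were known. The 10 enzymes and the lists were chosen with earlier results of these data known. Titles number the libraries 1 and 2 and descriptions number them 1 and 3; the titles are followed here. A marker of the HSC identity list is not reported here.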

Additional observations from a re-analysis of the deposited data

How the results depend on the processing

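Aldoc kept its direction in 12 alternatives (log2 fold change -1.21 to -1.01) and did not pass in any (limma, Benjamini-Hochberg adjusted p 0.0776 to 0.997). None of the 10 enzymes passed in any setting run, and Hk1, Hk2, Aldoc, Pgk1 and Ldha kept their sign in all that gave a value. Gpi1, at 0.01 with the deposited scaling, was at -0.071 with scaling to the total, -0.026 with trimmed mean scaling, -0.10 with upper quartile scaling and -0.013 with the trend on exon length removed. Pfkl was at -0.078, -0.032 and -0.11 with the same 3 scalings. Upper quartile scaling moved the median of all genes by -0.11, which covers these shifts. Leaving out 1 library at a time gave ranges of -0.13 to 0.15 for Gpi1, -0.33 to 0.34 for Pfkl, -0.024 to 0.40 for Aldoa, -0.28 to 0.22 for Tpi1, -0.077 to 0.40 for Pkm, 0.011 to 0.45 for Ldha, 0.025 to 0.46 for Hk2 and 0.26 to 0.58 for Hk1. It gave -0.46 to 0.10 for the Hk2 to Hk1 log2 ratio, -0.050 to 0.40 for the median of the 10 enzymes and 4 to 9 for their number above 0. Genes past the threshold over all genes then numbered 0 to 1: Ngp passed without WT replicate 2, and leaving out Sin3B KO replicate 2 gave Atp1b2, both named after their values were seen. With 1 library left in a group, it is assumed to vary like the other group. With the replicate number as a replicate block 27 genes passed (0.292%), and Aldoc had an adjusted p of 0.0776. Deviations of same-numbered libraries correlated at 0.465 over genes, but nothing in the labels says what the number marks. Aldoc and Pgk1 gave no value under the filter on a mean of at least 500. The count models edgeR and DESeq2, listed as alternatives, were not run: the deposited values are normalised, and the step from which reads were recovered could not be checked on low counts. The citric acid cycle settings were added after seeing the data. The median 95% confidence interval had a half-width of 0.60 on the log2 scale, a 1.51-fold difference.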

Other observations

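The genes whose pattern over the 4 libraries was most like that of Aldoc, by Euclidean distance between centred log2(value + 1) values, were Rasal3 (0.10), Npdc1 (0.11), Myo10 (0.13), Sh3rf1 (0.14) and Ldoc1l (0.14). Rasal3, a Ras GTPase-activating protein of blood cells, was at 503 and 608 normalised read counts in WT against 279.7 and 249.7 in Sin3B KO. Npdc1 was at 819.8 and 963 in WT against 410.4 and 433 in the KO. Myo10, an unconventional myosin of filopodia, was at 267 and 334 in WT against 148 and 129 in the KO. As these genes were picked for that pattern, their differences are a description only.

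The coding genes next to Aldoc on its chromosome that have values had overlapping genotypes. Spag5, a spindle protein, was at 333 and 261 in WT against 482 and 317 in Sin3B KO, with overlap. Pigs, a subunit of the transamidase that attaches GPI anchors, was at 1165 and 1596 in WT against 1254 and 1617 in the KO. Unc119, a lipid-binding trafficking protein, was at 171 and 347 in WT against 147 and 196 in the KO, 1.51-fold lower in the mean, as Aldoc was lower, with a log2 fold change of -0.52 (95% confidence interval -1.55 to 0.51). Gene order is that of a GRCm38 annotation, and these neighbours were looked up after the Aldoc values were known.

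Enolase values split by gene, with no values for Eno1. Eno2, the neuron-type isoenzyme, was at 271 and 315 in WT against 172 and 252 in Sin3B KO, with no overlap, and Eno3, the muscle type, was at 96.9 and 158 in WT against 205 and 127 in the KO. Pgam5, which despite its name is a mitochondrial protein phosphatase, was at 621 and 401 in WT against 372 and 287 in the KO. These genes were chosen after their values were seen and did not pass (limma, Benjamini-Hochberg adjusted p over all genes of at least 0.548).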
